A study of Mus musculus with 24 samples.

Results

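Malat1, Neat1, Rn45s and Lars2 are 4 genes that can take a large and unequal part of an RNA-seq library. They were chosen by name from the 24421 genes of the count tables, with their shares of the counts in these libraries already known, so those shares are given as a description. The 24 libraries were made from total RNA of CD8+ T cells, sorted as CD45+CD3+CD8+ cells. They came from the pancreas of KC mice (12 libraries), the blood of KC mice (9), the pancreas of WT B6 mice (2) and the blood of a WT B6 mouse (1). KC pancreas was sampled at 4 (3 libraries), 9 (2), 13 (3), 20 (2) and 30 weeks (2), and KC blood at 4 (2), 9 (1), 13 (3), 20 (1) and 30 weeks (2). WT pancreas was sampled at 9 and 30 weeks, 1 library each, and WT blood at 30 weeks. The series concerns the progression of pancreatic cancer, and the labels give KC without its alleles or promoter. Nothing in the labels says that libraries of 1 group and age came from separate cultures or sorts, so p-values measure the spread between these libraries.

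Malat1 is a long non-coding RNA that stays in the nucleus, in nuclear speckles, and is among the most abundant RNAs of many mammalian cells. Neat1, its neighbour in the genome, is the RNA scaffold of paraspeckles and is made as a short and a long transcript from the same start. Rn45s is the mouse gene symbol for the precursor of the ribosomal RNAs, transcribed by RNA polymerase I from repeated genes. Lars2 is a protein-coding gene for the leucyl-tRNA synthetase of mitochondria.

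Malat1 lies on the minus strand of chromosome 19 from 5795690 to 5802672 in build GRCm38 (mm10), and Neat1 on the same strand from 5824708 to 5845478 (GENCODE M21). Lars2 lies on the plus strand of chromosome 9 from 123366927 to 123462666. No position is given for Rn45s, which is not placed here. The ends of the Malat1 and Neat1 RNAs are shown because they differ in kind. In both Malat1 and the long Neat1 transcript an A-rich tract marks the mature end, which in mammals is cut by RNase P and folds into a triple helix in place of a poly(A) tail. The annotated Malat1 transcript runs on past that end. The short Neat1 transcript ends at an ordinary polyadenylation signal. Each run below holds 70 bases of the GENCODE transcript, 5′ to 3′, and capitals mark the motif AAAAAGCAAAA in the first pair and AATAAA in the last. Of 140988 GENCODE transcripts of at least 70 bases, 0.0411% held AAAAAGCAAAA in their last 70 bases and 27.6% held AATAAA, read on the transcript's own strand. The motif AAAAAGCAAAA was itself taken from the end of the long Neat1 transcript. In the Malat1 transcript shown it lies before the last 70 bases, so that transcript is not counted among its holders.
Malat1, transcript bases 6622 to 6691 of 6983: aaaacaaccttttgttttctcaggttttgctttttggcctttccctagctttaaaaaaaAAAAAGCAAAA
Neat1 long transcript, bases 20702 to 20771 of 20771: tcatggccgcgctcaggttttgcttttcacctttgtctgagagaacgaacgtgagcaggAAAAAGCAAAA
Neat1 short transcript, bases 2935 to 3004 of 3004: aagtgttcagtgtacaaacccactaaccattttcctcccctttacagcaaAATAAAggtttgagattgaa
The deposited count of Neat1 is 1 number per library, so the short and the long transcript were not told apart.

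The libraries held 6352070 to 16716169 gene counts (median 9602258). Of all tallied reads, 11.7% to 32.5% were assigned to genes and 48.6% to 69.7% to no feature. The T cell genes Cd3e and Cd8a had counts in every library, at medians of 6162 and 1269 CPM (counts scaled to a fixed total of gene counts). The libraries fell into 2 sets of 12, told apart in an earlier look at these data because libraries of 1 set share traces of each other's highest genes. Of 101 such genes, 92.6% of the possible traces were detected within a set, against 46.4% between sets. The sets were drawn from such traces in these same data, so this difference describes the sets and does not test them. In KC pancreas set 1 holds the 4 and 13 week libraries and set 2 those of 9, 20 and 30 weeks. All 3 WT libraries are in set 1.

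Summed over all libraries, Rn45s was in place 1 of all genes by count, Malat1 in place 2, Lars2 in place 3 and Neat1 in place 1299. Together the 4 genes took 4.75% to 22.9% of the gene counts of a library, with a median of 11.2%. The spread between libraries was wide: the highest share was 8.76 times the lowest for Malat1, 9.79 times for Rn45s, 10.96 times for Lars2 and 247 times for Neat1. Per kilobase of exon, Malat1 had a median of 3573 CPM and Neat1 a median of 3.58 CPM. Within a library the Malat1 level was 63.9 to 18005 times that of Neat1. The Neat1 level was divided by 20771 bases of exon, the length of the long transcript, while the short transcript has 3004 bases. Counts from the short transcript would make the Neat1 level higher and the ratio lower, and the transcripts were not told apart.

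Malat1 took 1.35% to 7.05% of the gene counts in KC pancreas, 0.967% to 3.93% in KC blood, 0.805% and 0.917% in WT pancreas and 1.03% in WT blood. In KC pancreas the shares were 1.35%, 1.66% and 2.05% at 4 weeks, 2.39% and 5.30% at 9 weeks, 1.78%, 2.60% and 3.38% at 13 weeks, 3.24% and 3.46% at 20 weeks, and 3.97% and 7.05% at 30 weeks. In KC blood they were 1.29% and 2.39% at 4 weeks, 2.69% at 9 weeks, 0.967%, 1.21% and 3.02% at 13 weeks, 3.38% at 20 weeks, and 3.53% and 3.93% at 30 weeks. The 2 oldest pancreas libraries lay above all pancreas libraries of 4, 13 and 20 weeks, while 1 library of 9 weeks stood above 1 of them. The oldest blood libraries lay above every other blood library. The share of all genes that did likewise was not counted in either tissue. Both blood libraries of 30 weeks are in set 2 and both of 4 weeks in set 1. The fitted Malat1 slope in KC blood was 0.10 ± 0.28 (SE) per 10 weeks on the log2 scale. Without scaling beyond totals this slope was 0.41 (edgeR, adjusted p = 0.842). All 12 KC pancreas libraries were above both WT pancreas libraries, and 8 of 9 KC blood libraries were above the WT blood library. Of 7171 genes with a mean of at least 10 CPM, 0.404% were likewise higher in KC than in WT pancreas without overlap.

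Rn45s took 2.63% to 12.1% of the gene counts in KC pancreas (median 6.38%) and 1.86% to 11.3% in KC blood (median 3.34%). It took 18.2% and 16.99% in WT pancreas, at 9 and 30 weeks, and 16.7% in WT blood. In KC pancreas the shares were 6.22%, 8.38% and 11.7% at 4 weeks, 3.12% and 6.54% at 9 weeks, 5.05%, 6.07% and 9.75% at 13 weeks, 6.21% and 7.50% at 20 weeks, and 2.63% and 12.1% at 30 weeks. The lowest and the highest KC pancreas library were thus both 30 weeks old, and no age stood apart from the others. In KC blood 2 libraries, of 9 and 13 weeks, reached 11.3% and 11.1%, the library of 20 weeks had 6.08%, and the other 6 lay between 1.86% and 3.95%. The 3 WT libraries lay above all 21 KC libraries.

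Lars2 took 0.728% to 3.58% in KC pancreas (median 2.08%) and 0.428% to 2.96% in KC blood (median 0.613%). It took 3.88% and 4.69% in WT pancreas, at 9 and 30 weeks, and 3.71% in WT blood, again above all 21 KC libraries. Of the 7171 genes with a mean of at least 10 CPM, 0.0418% were lower in all 21 KC than in all 3 WT libraries, Rn45s and Lars2 among them. In KC blood the shares fell into 5 libraries at 0.428% to 0.613% and 4 at 2.15% to 2.96%, with none between. In KC pancreas 6 of 12 libraries lay in that gap, at 0.728% to 2.003%. The count ratio of Rn45s to Lars2 moved less than either share, between 1.82 and 6.23 (mean 3.90 ± 1.11, SD, n = 24).

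Neat1 took 0.00116% to 0.151% in KC pancreas (median 0.00809%), 0.000610% to 0.0193% in KC blood (median 0.00823%), 0.00454% and 0.0132% in WT pancreas and 0.00488% in WT blood. One library, KC pancreas replicate 5 of 20 weeks, held 14654 Neat1 counts, or 0.151% of its gene counts. The next highest, KC pancreas replicate 10 of 4 weeks, held 2869 counts or 0.0302%, and the other library of 20 weeks held 150 counts or 0.00204%. The 95% Wilson interval of the highest share was 0.148% to 0.153%, which covers counting error only. The blood library that carries the same title number had 0.0137%. The groups overlapped for Neat1 in every comparison.

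**Figure D1:**
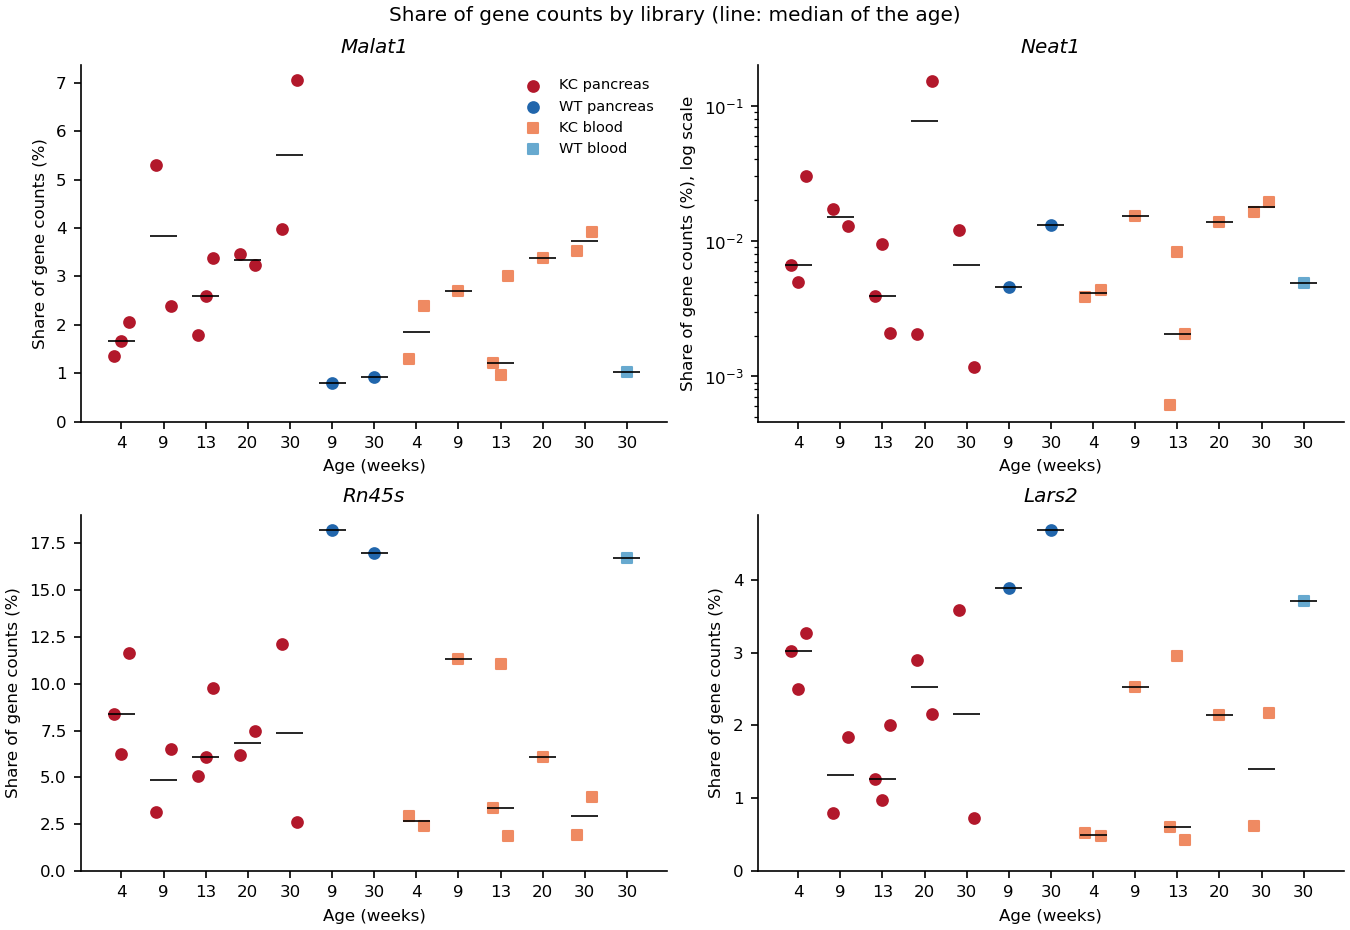
Share of gene counts in percent for Malat1, Neat1 (log scale), Rn45s and Lars2, by age in weeks, with 1 point per library and a line at the median of each age; round points are pancreas, square points blood, red and orange KC, blue WT. The WT libraries sit at 16.7% to 18.2% for Rn45s, above all KC libraries, and at 0.805% to 1.03% for Malat1, at the low end.

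The tests across all genes were edgeR quasi-likelihood F-tests with Benjamini-Hochberg adjustment, in 6 comparisons. The 4 genes were chosen with their values in these libraries known, so the p-values describe these libraries. Between KC pancreas and KC blood, with age as a factor, none of the 4 genes passed an adjusted p of 0.05, and 0.0904% of 11059 genes did (10 genes). Of the 4, 3 had an unadjusted p under 0.05, as did 9.85% of all genes, and DESeq2 called none of them and 4.33% of all genes. In simulated counts for this comparison, with changes added to genes taken across all 11059, the test recovered 0% of log2 changes of 1, 4.48% of 2 and 54.5% of 4. Rn45s differed by a log2 fold change of 0.93 ± 0.30 (SE, adjusted p = 0.230), Lars2 by 0.95 ± 0.32 (adjusted p = 0.245), Malat1 by 0.62 ± 0.29 (adjusted p = 0.483) and Neat1 by 1.09 ± 0.65 (adjusted p = 0.622), pancreas over blood. The 95% intervals ran from 0.33 to 1.52 for Rn45s, 0.31 to 1.60 for Lars2, 0.02 to 1.21 for Malat1 and -0.23 to 2.40 for Neat1. Without scaling beyond totals the log2 fold changes were 0.58 for Rn45s, 0.54 for Lars2, 0.32 for Malat1 and 0.56 for Neat1. None of these passed (edgeR, adjusted p = 0.617 to 0.834). With no filter on low counts Rn45s and Lars2 passed (edgeR, adjusted p = 4.5e-07 and 0.0014). In that fit 34 of 15248 genes passed, and the log2 fold changes were 0.96 for Rn45s and 0.99 for Lars2. An alternative chosen after seeing the data kept the filter and used a prior variance that does not follow abundance. The edgeR adjusted p was then 0.506 for Rn45s and 0.504 for Lars2. Among the 9 pairs of KC libraries that share a title number, each of the 4 genes had the larger share in pancreas in 6 pairs. The pairs ran from a log2 ratio of -0.86 to 2.65 for Rn45s and from -1.60 to 2.78 for Lars2.

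Over age, none of the 4 genes passed in KC pancreas, where 0.293% of 9555 genes did (28 genes). Of the 4, Malat1 had an unadjusted p under 0.05, as did 8.95% of all genes, and DESeq2 called none of them and 4.42% of all genes. Among the 28 genes were 6 acinar cell markers (digestive enzyme genes), at slopes of -6.67 to -5.50 per 10 weeks, and 2 fibroblast markers, Bgn and Col3a1. Their part in the Malat1 slope was not tested. The Malat1 slope was 0.54 ± 0.25 per 10 weeks on the log2 scale (edgeR, adjusted p = 0.499), with a 95% interval of 0.03 to 1.06. With the set of libraries as a term it was 0.56 (adjusted p = 0.779), and no gene passed. The slopes of Rn45s and Lars2 were -0.01 ± 0.26 and 0.01 ± 0.24 (edgeR, adjusted p = 0.998 for both), and with the set of libraries as a term 0.50 and 0.34 (adjusted p = 0.805 and 0.905). The Neat1 slope of 0.67 ± 0.68 (edgeR, adjusted p = 0.893) became -0.51 without KC pancreas replicate 5 and -0.49 with the set of libraries as a term. In KC blood no gene of 9933 (0%) passed edgeR's adjusted threshold, while 870 (8.76%) had an unadjusted p under 0.05 and DESeq2 called 315 (3.17%), none of the 4 genes among them. There the slopes were 0.10 ± 0.28 for Malat1, 0.48 ± 0.48 for Neat1, -0.44 ± 0.35 for Rn45s and 0.12 ± 0.35 for Lars2. The difference of the age trends, pancreas minus blood, passed for 0.0543% of 11059 genes (6 genes) and for none of the 4. At an unadjusted p under 0.05 there were 8.33% of all genes and by DESeq2 2.15%, again none of the 4. The difference was 0.45 ± 0.34 for Malat1 (edgeR, adjusted p = 0.783).

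KC against WT was fitted in pancreas at 9 and 30 weeks, where each age has 1 WT library, with the other KC ages adding to the estimate of the spread. The KC pancreas libraries of these 2 ages are all in set 2 and the WT libraries in set 1. Genotype and library set therefore cannot be told apart in this contrast. Malat1 was higher in KC by a log2 fold change of 2.49 (edgeR, adjusted p = 4.8e-19), and Rn45s and Lars2 were lower, at -1.64 (adjusted p = 3.5e-24) and -1.43 (adjusted p = 1.5e-06). The median of all genes tested was 0.41. By this test 0.226% of 12374 genes passed (28 genes, with 5.79% at an unadjusted p under 0.05), these 3 among them, and Neat1 did not (0.41, adjusted p = 0.9998). Another 10 of the 28 were acinar cell markers, lower in KC by far more than Rn45s and Lars2, at fitted log2 fold changes of -15.7 for Ctrb1 to -7.54 for Cpb1, values that depend on the prior count where libraries are near 0. Summed over 12 acinar markers, the KC pancreas libraries had 0.131 and 0.458 CPM at 9 weeks and 0.236 and 59.0 CPM at 30 weeks, against 3241 and 878.2 CPM in WT pancreas at 9 and 30 weeks. Whether acinar RNA had a part in the shares of the 4 genes was not tested. The p-values rest on how the variance was set. These 3 genes are the most abundant of all, and edgeR's prior variance follows abundance: the fit used 0.0355 for Rn45s, 0.0701 for Malat1 and 0.0826 for Lars2, where each gene's own residual variance was 0.690, 0.586 and 0.557. With a prior variance that does not follow abundance, an alternative chosen after seeing the data, the same fold changes gave an edgeR adjusted p of 0.805 for Malat1, 0.805 for Rn45s and 0.829 for Lars2. The 95% interval of Malat1 was then 0.44 to 4.54, against -3.34 to 0.07 for Rn45s and -3.17 to 0.31 for Lars2. DESeq2 called 1.28% of all genes and none of the 3, with an adjusted p of 0.166 for Malat1, 0.503 for Rn45s and 0.569 for Lars2. The calls of all 3 were also lost without either WT library, and those of Rn45s and Lars2 without KC pancreas replicate 11 or 12, of 9 weeks. The genotype difference is therefore given as the values of the libraries.

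In blood, KC against the 1 WT library at 30 weeks gave no call in 12496 genes (0%) by edgeR, with 354 (2.83%) at an unadjusted p under 0.05, Rn45s among them, and 11 calls (0.088%) by DESeq2. Rn45s had a log2 fold change of -2.55 and Malat1 of 1.79. The KC blood libraries of 30 weeks are in set 2 and the WT blood library is in set 1. Genotype and library set cannot be told apart here either. Leaving out each KC blood library in turn moved the Rn45s value between -3.24 and -2.09. The p-values of this comparison rest on 1 WT library and on how the variance was set.

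**Figure D2:**
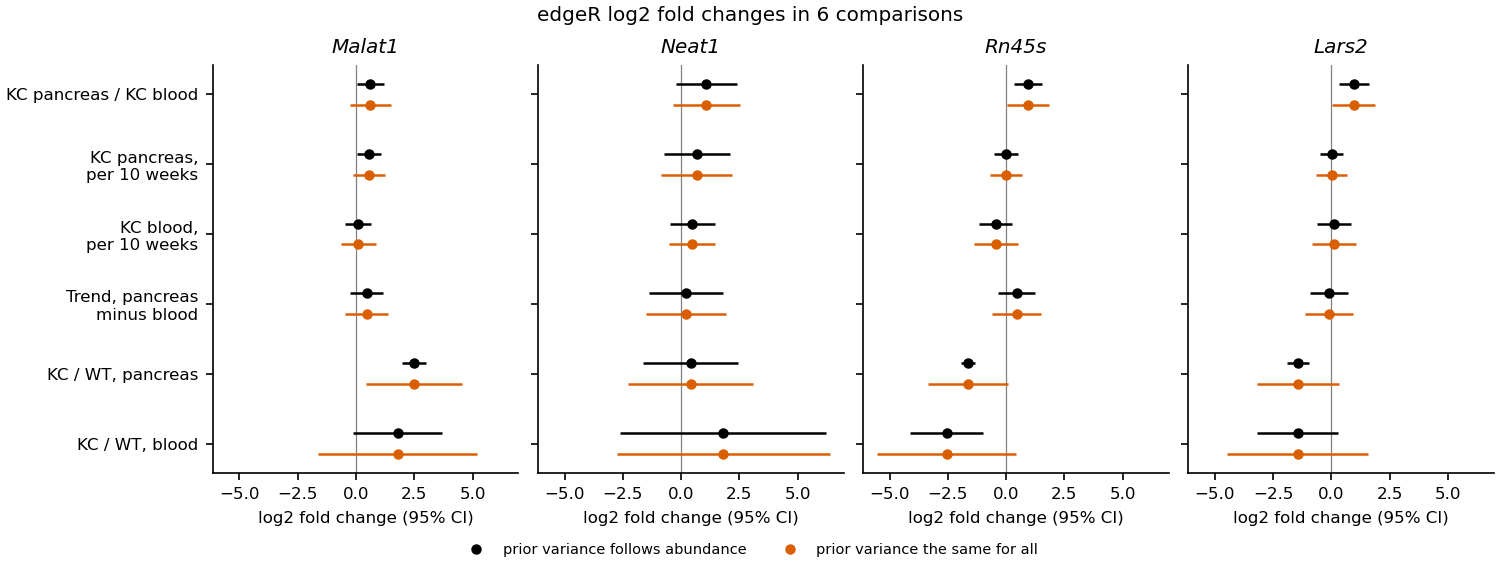
log2 fold changes of the 4 genes with 95% intervals in 6 comparisons (per 10 weeks for the age trends), from the same edgeR fits with a prior variance that follows abundance (black) and one that does not (orange). For KC over WT in pancreas the Malat1 interval is 1.99 to 2.98 in black and 0.44 to 4.54 in orange.

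Across the 24 libraries the shares of Rn45s and Lars2 moved together, with r = 0.92 and rho = 0.92 on log2 shares. Without the 2 libraries farthest from the median of Rn45s, r was 0.90. Within KC pancreas r was 0.86 (n = 12) and within KC blood 0.89 (n = 9). Within set 1 it was 0.95 and within set 2 it was 0.93. The genes were chosen with these shares and the no-feature shares set side by side, so the 10 relations among them are given as a description, with no test.

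Malat1 moved apart from that pair. Its relation to Rn45s was r = -0.50 across all libraries (rho = -0.45), and -0.36 without the 2 libraries farthest from the Malat1 median. In the 21 KC libraries alone it was -0.23, or 5.4e-06 without their 2 farthest libraries. It was -0.49 in KC pancreas and -0.28 in KC blood, or -0.15 and 0.07 without the 2 farthest libraries of each. In set 2, which holds no WT library, it was -0.50, or -0.25 without its 2 farthest libraries. Neat1 had r between 0.14 and 0.36 with the other 3.

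The share of reads in no feature, which were assigned to no gene, moved with Malat1. The strand setting is not given, so whether these reads lie outside annotated exons is not known. The relation was r = 0.81 and rho = 0.83, and 0.76 without the 2 farthest libraries. The 2 libraries with the highest Malat1 shares, 7.05% and 5.30%, had 69.7% and 66.3% of tallied reads in no feature. The library with the lowest KC share, 0.967%, had 48.6%. Within KC blood r was 0.97 (n = 9) and within KC pancreas 0.62 (n = 12). Within set 2 r was 0.93, and within set 1 it was 0.19, or 0.51 without its 2 farthest libraries. A share of gene counts has the reads left for genes as its base, which links it to the no-feature share. With all tallied reads as the base, r was 0.52. The Malat1 share also ran against the number of gene counts (rho = -0.85 over 24 libraries), but not with the number of tallied reads (rho = 0.08). Depth in this sense was not separated from the no-feature share, and its part was not tested.

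Rn45s ran against the no-feature share, at r = -0.53 and rho = -0.49 over 24 libraries. In KC libraries alone r was -0.38. Within KC pancreas r was -0.58 and within KC blood -0.30, or -0.14 and 0.06 without the 2 farthest libraries of each. With all tallied reads as the base, r over 24 libraries was -0.71. On shares of gene counts, r with no feature was -0.27 for Lars2 and 0.25 for Neat1.

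**Figure D3:**
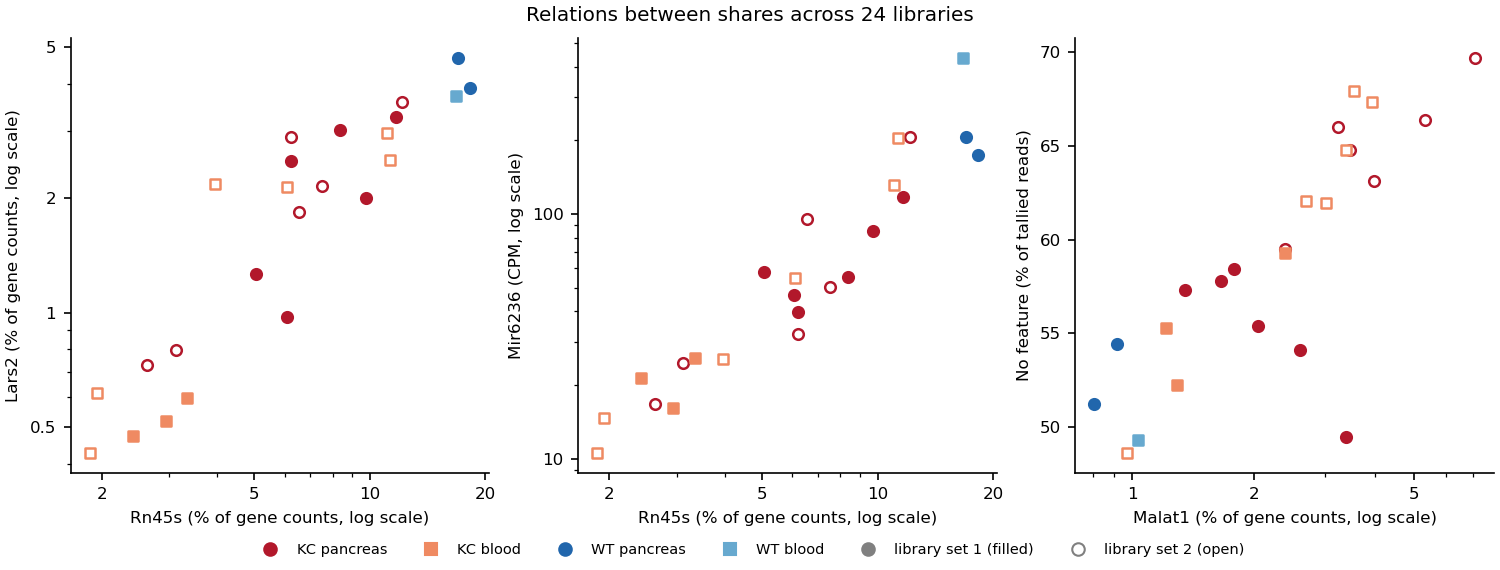
Lars2 share and Mir6236 level against Rn45s share, and no-feature share against Malat1 share, in 24 libraries; round points are pancreas and square points blood, filled points are set 1 and open points set 2, axes with "log scale" are logarithmic. Rn45s and Lars2 rise together from 1.86% and 0.428% up to the 3 WT libraries at the upper right.

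The tallies themselves did not pass between tissues. No-feature reads made up 60.2% ± 5.91 of tallied reads in KC pancreas (SD, n = 12) and 59.9% ± 6.70 in KC blood (SD, n = 9), a difference of 0.23 percentage points (exact permutation test, two-sided, p = 0.93). Reads in genes made up 21.4% ± 5.44 in KC pancreas and 20.5% ± 5.94 in KC blood (exact permutation p = 0.74). Reads that did not map uniquely differed by -0.92 percentage points, KC pancreas minus KC blood (exact permutation p = 0.13, adjusted p = 0.340 over 4 tallies). Reads from near-identical rRNA gene copies could fall in this last class, so the Rn45s count is uncertain as a level of rRNA.

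Of 6648 other genes with counts in all 24 libraries and a mean of at least 10 CPM, the one most like Rn45s was Mir6236, a miRNA gene (rho = 0.95 over 24 libraries). It was also second for Lars2 (rho = 0.84). The Mir6236 level ran from 16.7 to 206.7 CPM in KC pancreas, 10.5 to 204.6 CPM in KC blood, 174.5 and 207.2 CPM in WT pancreas and 436.1 CPM in WT blood. The WT values thus overlapped with those of KC pancreas, unlike those of Rn45s. Mir6236 lies on chromosome 9 from 110281287 to 110281409 in GRCm38 (RefSeq), and the mature RNA at 110281353 to 110281371 on the plus strand is shown because its gene came first. The counts are those of the whole gene under its symbol, and whether they came from the mature RNA was not tested. Capitals mark the seed, bases 2 to 8.
Mir6236 mature: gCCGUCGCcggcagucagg
After Mir6236 came Eef2, the elongation factor that moves the ribosome along mRNA (rho = 0.81), and Atxn7l3, a subunit of a histone deubiquitinase (rho = 0.78). For Lars2 the nearest gene was Pnpla2, a triglyceride lipase (rho = 0.85), and the third was Atxn7l3 (rho = 0.80). Nearest to Malat1 were 4930519G04Rik (rho = 0.78), the peptidase gene Tpp2 (rho = 0.77) and the zinc finger gene Zfp277 (rho = 0.76). Nearest to Neat1 were Smim13 (rho = 0.79), Nisch (rho = 0.78) and the transcription factor gene Atf7 (rho = 0.77).

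Lars2 was set against 18 other genes for mitochondrial tRNA synthetases, each of which charges a tRNA with its own amino acid. Per kilobase of exon Lars2 had 385.7 to 4225 CPM with a median of 1939, while the next by median, Gars, had 13.1 and Nars2 had 7.66. Gars and Kars also make the enzyme of the cytosol. The lowest Lars2 value in any library was 6.13 times the highest value of any other synthetase in any library (Sars2, 62.9). Of the 8 synthetases that could be compared, 6 had a positive rho with Lars2 (median 0.20), where 65.5% of all genes compared did (median 0.12). Kars stood highest, at 0.76, and Nars2 lowest, at -0.19. The 9 annotated Lars2 transcripts were compared with 356 annotated rRNA transcripts, of up to 1849 bases, by BLAST, and none matched at an E-value of 0.001. The full rRNA precursor and the large-subunit rRNA were not used here.

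**Figure D4:**
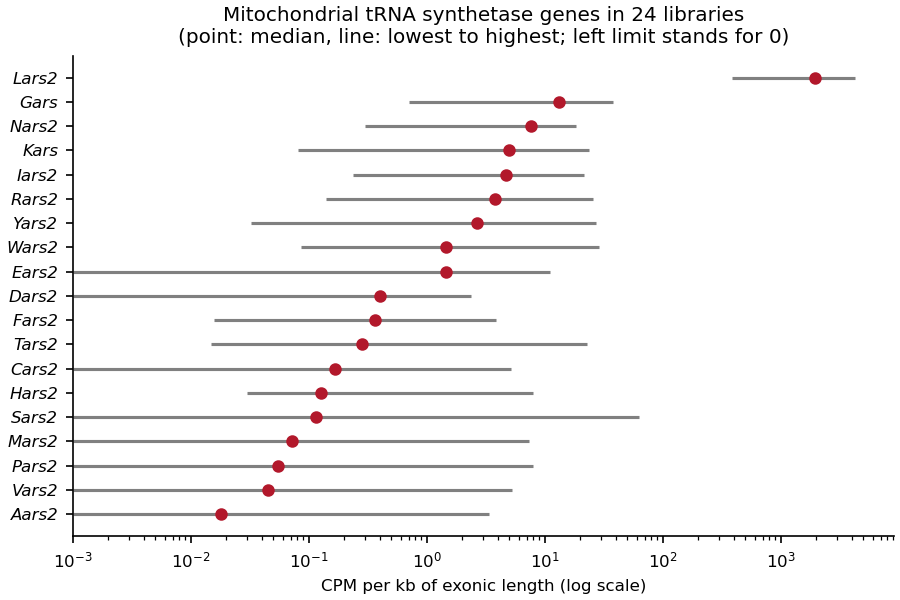
Level of Lars2 and 18 other mitochondrial tRNA synthetase genes in CPM per kilobase of exonic length on a log scale, as the median (point) and the range (line) over 24 libraries. Lars2 spans 385.7 to 4225, above the full range of every other gene.

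In 5 lists of related genes (RNA polymerase I and rRNA processing, mitochondrial tRNA synthetases, speckle proteins, other long non-coding RNAs and structural RNAs), no tested gene passed edgeR's adjusted threshold in any of the 6 comparisons. In pancreas against blood 15 of the 114 tested (13.2%) had an unadjusted p under 0.05, against 9.85% of all genes. DESeq2 called 5 (4.39%), near its 4.33% of all genes. Named after their values were seen, these were the rRNA processing genes Ddx21, Fbl and Nop2, the synthetase gene Hars2 and the non-coding RNA Jpx. In the other 5 comparisons 1.72% to 6.84% of the tested genes had an unadjusted p under 0.05, against 2.83% to 8.95% of all genes. DESeq2 called Airn in the age trend of KC pancreas (0.962% of the genes tested, against 4.42% of all genes). In the age trend of KC blood it called Sars2 and Snhg12 (1.87% against 3.17%). In the difference of trends it called Sars2 (0.877% against 2.15%). For KC against WT in pancreas it called Rrp9 and Snord118 (1.71% against 1.28%). These genes were again named after their values were seen. Among 39 genes for RNA polymerase I and rRNA processing, 23 were positive in pancreas against blood, with a median log2 fold change of 0.19 against -0.12 for all genes. Npm1, a nucleolar chaperone, differed by 0.23 ± 0.35 (SE, edgeR, adjusted p = 0.894), Ncl, nucleolin, by 0.68 ± 0.37 (adjusted p = 0.568) and the exonuclease gene Xrn2 by -0.22 ± 0.40 (adjusted p = 0.913). Across libraries 22 of the 33 of these genes that could be compared had a positive rho with Rn45s (median 0.09), against 60.7% of all genes compared (median 0.08). The list's count was near that of all genes.

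Of 30 genes for proteins of paraspeckles and nuclear speckles, 23 were positive in pancreas against blood, with a median of 0.50 against -0.12 for all genes. Srrm2, a core protein of speckles, differed by 0.88 ± 0.34 (SE, edgeR, adjusted p = 0.331), the helicase gene Ddx5 by 0.73 ± 0.33 (adjusted p = 0.457) and Hnrnpk by 0.10 ± 0.39 (adjusted p = 0.969). Across libraries 19 of 29 had a positive rho with Malat1 (median 0.12), against 46.4% of all genes (median -0.02). With Neat1, 21 of 29 were positive, against 71.3% of all genes.

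Of 18 other long non-coding RNAs that were tested, 7 were positive in pancreas against blood. Their median was -0.14, near the -0.12 of all genes. Xist, which silences an X chromosome in female cells, differed by 0.23 ± 1.03 (SE, edgeR, adjusted p = 0.976) and ran from 24.6 to 9074 CPM. Kcnq1ot1, which acts in imprinting, differed by -1.03 ± 0.39 (adjusted p = 0.316) and Gas5, a host of small nucleolar RNAs, by 0.53 ± 0.38 (adjusted p = 0.704). Across libraries 7 of 10 had a positive rho with Malat1 (median 0.12), against 46.4% of all genes compared (median -0.02). With Rn45s 3 of 10 were positive (median -0.12), against 60.7% of all genes compared (median 0.08). Among 9 structural non-coding RNAs that were tested, Mir6236 differed by 0.97 ± 0.73 (SE, edgeR, adjusted p = 0.720). Rmrp, the RNA of RNase MRP, which takes part in rRNA processing, differed by 0.26 ± 0.84 (adjusted p = 0.959) and Rpph1, the RNA of RNase P, by 0.81 ± 1.04 (adjusted p = 0.866). Rmrp ran against Rn45s across libraries, with a rho of -0.47, and Rpph1 had a rho of -0.14.

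Markers of other cells varied between libraries. The 12 acinar cell markers summed to 0.103 to 7710 CPM in KC pancreas (11 of 12 detected, Amy2a5 at 0), 0.0896 to 66.0 CPM in KC blood (10 of 12, Prss1 and Amy2a5 at 0), 878.2 and 3241 CPM in WT pancreas (10 of 12, the same 2 at 0) and 65.9 CPM in WT blood (11 of 12, Amy2a5 at 0). Their sum ran against the Malat1 share, with a rho of -0.61 over 24 libraries, -0.71 in KC pancreas and -0.55 in KC blood. Its rho with Rn45s was 0.30 over 24 libraries, 0.15 in KC pancreas and -0.27 in KC blood. The 8 T cell markers were all detected in every group. They summed to 6528 to 19023 CPM in KC pancreas and 6251 to 15544 CPM in KC blood. In WT pancreas the sums were 10084 and 11446 CPM, and in WT blood 8401 CPM. Over 24 libraries the T cell sum had a rho of -0.60 with Neat1, -0.20 with Malat1, -0.24 with Rn45s and -0.33 with Lars2. Taken singly, 2 of the 8 had a positive rho with Neat1, Cd247 (0.26) and Cd2 (0.15). The median of the 8 was -0.28, against 0.14 for all genes compared. The 8 platelet markers summed to 2.003 to 94.7 CPM in KC pancreas (7 of 8 detected, Gp1bb at 0) and 39.7 to 332.1 CPM in KC blood (8 of 8), with 3.03 and 3.51 CPM in WT pancreas (4 of 8) and 377.3 CPM in WT blood (8 of 8). The 8 erythroid markers summed to 4.13 to 94.1 CPM in KC pancreas and 24.4 to 494.6 CPM in KC blood (4 of 8 in each), with 28.3 and 57.6 CPM in WT pancreas (3 of 8) and 235.9 CPM in WT blood (4 of 8). The haemoglobin genes Hba-a1, Hba-a2, Hbb-bs and Hbb-bt were at 0 in all 4 groups. In pancreas against blood the platelet gene Ppbp (-5.14, edgeR, adjusted p = 0.000115) and the erythroid gene Alas2 (-4.12, adjusted p = 0.0358) were among the 10 genes that passed. Over 24 libraries the platelet sum had a rho of -0.34 with Rn45s and -0.33 with Lars2, and the erythroid sum 0.04 and 0.06. The part of other cells in the shares of the 4 genes was not tested. In bulk samples, fewer cells of a type and less RNA per cell cannot be told apart.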

How the data were processed

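RNA from sorted CD8+ T cells of 24 libraries was analysed from the deposited gene counts, whole reads per gene in 1 table per library. Per the submitters' processing notes, TopHat, SAMtools, HTSeq and DESeq were used with genome build mm10; versions, strand setting and library kit are not given in the sources used here, so reads of antisense or overlapping genes cannot be told apart. Library depth was 6352070 to 16716169 gene counts. The tallies of no feature, ambiguous and not unique reads stayed out of library sizes and made up 67.5% to 88.3% of tallied reads. Groups and ages came from the labels.

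Counts of 6 comparisons were fitted with edgeR 4.0.16 in R 4.3.3: TMM scaling, filterByExpr with a minimum count of 10, a robust quasi-likelihood F-test, Benjamini-Hochberg adjustment over all genes tested and a threshold of 0.05. Fits were tested on simulated data with 200 changed genes per comparison. For KC against WT in pancreas the test recovered 0%, 1.49% and 1.52% of log2 changes of 1, 2 and 4, and in blood 0% of each. Alternatives were RLE or no scaling, the 4 genes left out of the scaling, no filter, DESeq2 1.42.0, a set term, a block of title numbers and leaving out each library. Shares are percent of gene counts. Relations are r and rho of log2 shares. The permutation tests planned for them (100000 resamples, or all orders for 9 libraries) set the changes listed with the alternatives but are not reported, because the shares chose the genes. Levels per kilobase used GENCODE M21 exons, and sequences came from GENCODE M21 and RefSeq (GRCm38). BLAST 2.17.0 was used for the rRNA search.

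The 4 genes and all gene lists were chosen with earlier results of these data known. Named were the 4 genes, for each the 3 genes of highest rho, and of each of the 5 lists of related genes the edgeR calls and the 3 of highest mean CPM. Library sets were taken from shared traces: a gene that reaches 100 CPM in a single library leaves traces, of up to 5% of that level, in other libraries. Whether a pancreas and a blood library that share a title number came from the same mouse was not settled. Their deviations from the group means correlated between -0.05 and 0.02. Numbers 42 and 43 gave the same value (-0.018), as did 302 and 303 (0.017), so these values are not independent. Such correlations can neither show nor exclude a pairing. The main fit of pancreas against blood used no pairing.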

Additional observations from a re-analysis of the deposited data

How the results depend on the processing

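Of the 4 genes, none changed direction in pancreas against blood under any alternative run, and Malat1, Rn45s and Lars2 kept theirs in KC against WT. Counts of called genes moved more. With DESeq2 they were 479 for pancreas against blood, 422 and 315 for the age trends in KC pancreas and KC blood, 238 for their difference, and 158 and 11 for KC against WT in pancreas and blood. With no filter they were 34 for pancreas against blood, and 686 and 102 for the age trends in KC pancreas and KC blood. Pancreas against blood gave 65 with no age term. The age trend in KC pancreas gave 0 with the set term. Without scaling there were 2 calls for the age trend in KC blood and 1 for KC against WT in blood. The difference of trends gave 0 with RLE and 1 without the abundance trend of the variance.

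Leaving out each library in turn gave 6 to 21 calls for pancreas against blood, 10 to 31 and 0 to 12 for the age trends in KC pancreas and KC blood, 0 to 13 for their difference, and 4 to 29 and 0 to 2 for KC against WT in pancreas and blood. The WT blood library could not be left out. Over the same fits the Rn45s slope in KC pancreas ran from -0.28 to 0.23, that of Lars2 from -0.26 to 0.21 and that of Neat1 from -0.51 to 1.27. The Lars2 slope in KC blood ran from -0.027 to 0.47. The difference of trends ran from -0.97 to 0.82 for Neat1 and from -0.43 to 0.10 for Lars2. Neat1 in KC against WT in pancreas ran from -0.88 to 1.60.

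Other slopes near 0 also changed sign. In KC pancreas Lars2 was -0.053 without scaling, Rn45s was 0.015 with the 4 genes left out of the scaling, 0.0024 with no filter and 0.50 with the set term, and Neat1 was -0.49 with the set term. In KC blood Malat1 was -0.042 with RLE and -0.042 with DESeq2, and Lars2 -0.042 with the set term. The difference of trends for Neat1 was -0.15 without scaling. In KC against WT in pancreas RLE ended the call of Lars2 (edgeR, adjusted p = 0.445) and no filter that of Rn45s (adjusted p = 0.905). Without scaling Malat1 passed in KC against WT in blood (edgeR, adjusted p = 0.0069).

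With title numbers as a block over 9 KC pairs, pancreas against blood gave 14 calls and none of the 4 genes, and the no-feature difference was -0.66 percentage points. With set 1 alone the differences were -0.18 for no feature and -1.99 for not unique (adjusted p = 0.048), and with set 2 alone -1.97 for reads in genes. Leaving out each library gave -1.18 to 1.23 for no feature and -0.14 to 2.33 for reads in genes.

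With all tallied reads as the base, the mean shares over 24 libraries were 0.515% for Malat1, 1.79% for Rn45s and 0.475% for Lars2. Malat1 and Rn45s had r = -0.40 on gene counts without the 4 genes, -0.39 in set 1, -0.50 in set 2, -0.23 in KC alone and -0.37 on all tallied reads. Rn45s and no feature had -0.52 in set 1, -0.53 in set 2 and -0.38 in KC alone. Malat1 and no feature had 0.19 in set 1. Malat1 and Neat1 had -0.16 in set 2. Lars2 and no feature had -0.51 on all tallied reads. The cause of these changes was not tested.

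WT rests on 3 libraries, and the ages of KC pancreas are split by library set, so age and set cannot be told apart between the 2 sets. In both fits of KC against WT, the KC libraries of the WT ages are in set 2 and the WT libraries in set 1. Genotype and set cannot be told apart there. Counting error was small beside the spread between libraries except for Neat1, with 60 counts in its lowest library.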
